A study of Mus musculus with 15 samples.

Results

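The genes that differ between macrophages lacking the very-low-density lipoprotein receptor (VLDLR_KO) and wild-type macrophages (WT) were determined in 10 of the 15 RNA-seq libraries of the study, 5 of each genotype, with the form of the sample code as a covariate. Sample codes carry a digit either before the letter B (digit-first form) or after it (B-first form), and what the form stands for is not explained in the labels. WT replicates 3 to 5 and VLDLR_KO replicates 1 and 2 have the digit-first form, and WT replicates 1 and 2 and VLDLR_KO replicates 3 to 5 the B-first form. Both groups were bone macrophages of mice labelled C57BL6J, kept in culture for 14 days with 20 ng/ml of the growth factor M-CSF, and they differed in the Vldlr genotype alone, per the labels. The knockout allele and the age of the mice are not given in the sources used here. Whether each replicate came from its own animal or dish is not stated in the labels. The tests therefore compare the genotypes with the spread among these 10 libraries, which may be technical.

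VLDLR belongs to a family of lipoprotein receptors. It takes up triglyceride-rich lipoproteins, and together with a sister receptor it passes the signal of the secreted protein reelin into the cell. Macrophages clear lipoproteins, antibody-coated particles and dying cells, digest them in lysosomes, present fragments on MHC class II, and sense infection through interferon and inflammatory genes. The series title links VLDLR to QKI, the splicing regulator made from Qk, and to a circular RNA of the lysosomal sialic acid exporter gene Slc17a5.

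Libraries held 18132866 to 18568782 estimated counts each, and 11425 of 16886 genes passed the filter on low counts. Levels are in CPM, read counts scaled to a common library total by the TMM method. A gene is called where the Benjamini-Hochberg adjusted p of the edgeR quasi-likelihood test over these genes is under 0.05, and SE is the standard error of a log2 fold change of VLDLR_KO over WT. Macrophage markers were present: the 31 macrophage identity genes in the table summed to 34700 to 41200 CPM in WT and 37700 to 61700 CPM in VLDLR_KO, and 0 of them stayed under 1 CPM in every library. The targeted gene Vldlr was itself too low to be tested, with 5, 9, 36, 10 and 14 counts in WT replicates 1 to 5 and 2, 5, 1, 9 and 9 counts in VLDLR_KO replicates 1 to 5. The groups overlap, so Vldlr checks the labels only weakly at this depth. The 4 Y-linked genes were at 0 or 1 count each in WT replicate 3 and in VLDLR_KO replicates 3 and 4, and at 242 counts or more in every other library.

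Between the genotypes 1322 of 11425 genes (11.6%) were called, 593 of them higher (5.19%) and 729 lower (6.38%) in VLDLR_KO. Of these, 208 rose and 325 fell at least 2-fold, together 4.67% of the tested genes. Counts of calls in the gene lists below are to be read against the 5.19% higher and 6.38% lower of all tested genes. The first principal component of the 10 libraries followed the code form (38.1% of the variance) and the second the genotype (35.3%; -43.2 to -26.0 in WT and 20.8 to 50.7 in VLDLR_KO). Without the form in the model 713 genes (6.24%) were called. Both models shared 694 calls, 628 were called only with the form and 19 only without it. All 1322 calls had the same sign within each form, which the covariate model favours because it fits the same libraries. For 815 of the calls no WT library overlapped any VLDLR_KO library, against 9.38% of all tested genes without such an overlap. Within each form, in the same direction, the genotypes did not overlap for 1214 of the 1322 calls, against 17.5% of all tested genes. A separation within each form, given for single genes below, is thus a trait of most calls. The genotype effect itself differed between the forms for 1278 genes (11.2%), and 143 of the 1322 calls were among them. Both counts rest partly on single libraries: the 593 higher genes became 371 without WT replicate 2, 360 without WT replicate 4 and 365 without VLDLR_KO replicate 5. The 1278 became 4812 without VLDLR_KO replicate 1, 1814 without VLDLR_KO replicate 4, and 197 to 814 without any 1 WT library or VLDLR_KO replicate 3 or 5.

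**Figure D1:**
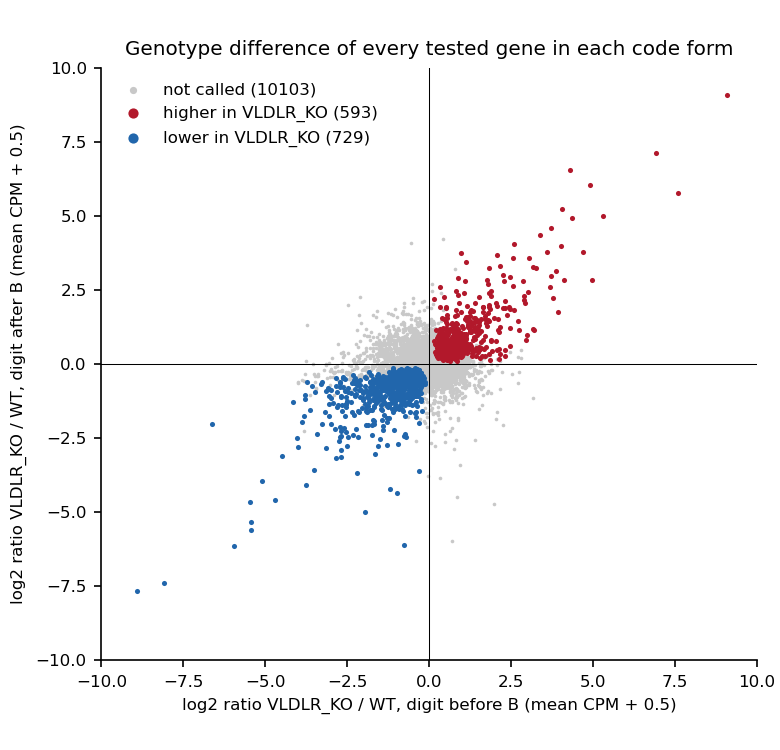
Each point is 1 of the 11425 tested genes. The horizontal axis is the log2 ratio of mean CPM (plus 0.5) of VLDLR_KO over WT in the digit-first form and the vertical axis the same ratio in the B-first form. Genes called higher (593, red) lie in the upper right and genes called lower (729, blue) in the lower left, while uncalled genes (grey) also lie in the other corners.

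The largest differences were losses and gains of whole transcripts. Npy, the neuropeptide Y gene, had 121, 91.6, 225, 220 and 270 CPM in the WT libraries and 1 count in all VLDLR_KO libraries together. C77080, an uncharacterised gene, had 199, 214, 340, 345 and 341 CPM in WT against 0.753, 0.773, 0.842, 0.721 and 0.583 CPM in VLDLR_KO. No library of either genotype came near the other for these genes. The genes of largest fold change were picked among calls without an overlap of the genotypes within either form. The zinc finger genes Zfp984 (log2 fold change -4.81, SE 0.31, adjusted p = 5.72e-06) and Zfp429 (-4.60, SE 0.23, adjusted p = 1.42e-06) fell, as did the Golgi GTPase gene Rab6b (-8.30, SE 0.47) and the antiviral family gene Trim30d (-6.79, SE 0.40). Transcripts with 0 counts in WT appeared as well. Ifi202b, of the interferon-inducible p200 family that senses DNA, had 11.7, 7.97, 11.6, 16.7 and 15.7 CPM in VLDLR_KO, at least 78.6-fold above a floor of 3 counts per WT library. Gm42031, a predicted gene, was at least 195-fold and Eno1b, a retrocopy almost identical in sequence to the enolase gene Eno1, at least 1680-fold above that floor. The counts of near-identical copies are uncertain, since their reads can be assigned to either copy.

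Among the strongest gains was Stard13, a GTPase-activating protein gene, which stood at 0.554, 0.741, 5.03, 2.21 and 2.23 CPM in WT and at 67.5, 50.1, 19.4, 14.1 and 18.5 CPM in VLDLR_KO (4.40, SE 0.27, adjusted p = 4.22e-06). Every VLDLR_KO library exceeded every WT library, with the highest values in VLDLR_KO replicates 1 and 2. Plekha7, a junction adaptor gene (5.04, SE 0.32, adjusted p = 4.34e-06), Rims2, a gene of vesicle docking (4.83, SE 0.30, adjusted p = 4.22e-06), the chemokine gene Cxcl14 (4.21, SE 0.25, adjusted p = 3.40e-06) and the phospholipase gene Gdpd3 (7.98, SE 0.40, adjusted p = 1.40e-06) rose as well. Of abundant genes, Apobec1, which encodes the editing enzyme of apolipoprotein B mRNA, had 344, 366, 382, 383 and 375 CPM in WT against 1302, 1321, 926, 1027 and 950 CPM in VLDLR_KO (1.62, SE 0.09, adjusted p = 2.21e-06). WT libraries lay within a narrow band and every VLDLR_KO library was far above it. The mitochondrial uncoupling protein gene Ucp2 rose by 0.72 (SE 0.16, adjusted p = 0.0159).

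**Figure D2:**
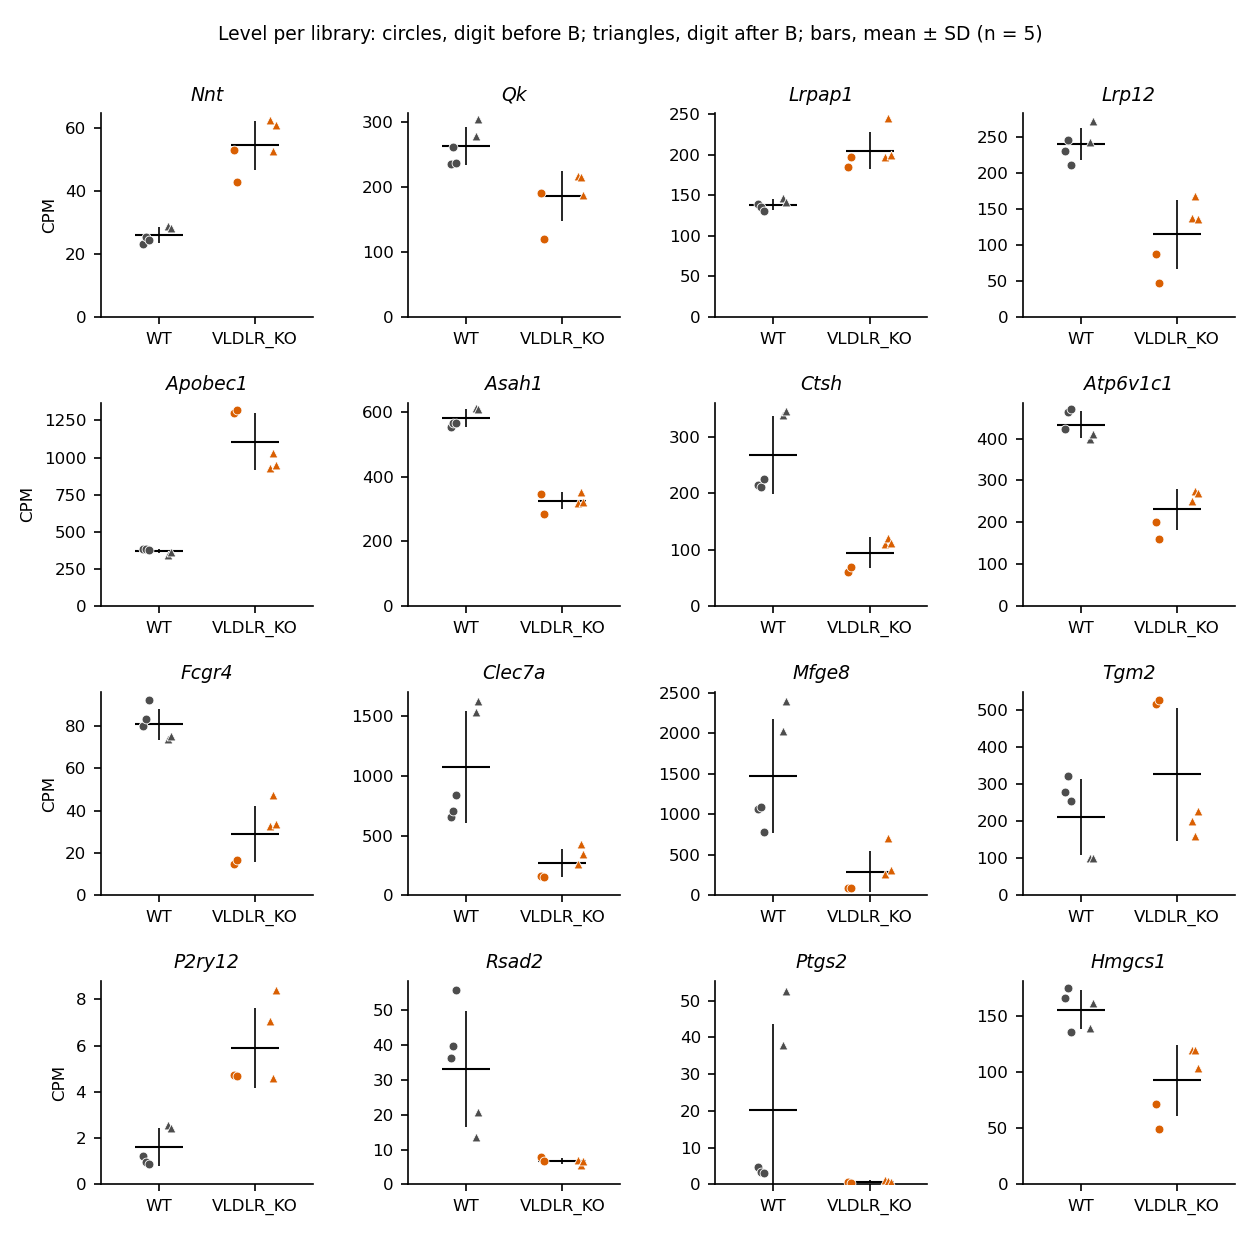
CPM of 16 genes in each library, with WT in grey and VLDLR_KO in orange. Circles are digit-first and triangles B-first libraries, and bars give the mean ± SD (n = 5). Apobec1, Nnt and Asah1 separate the genotypes in both forms, while Tgm2 separates them only when circles are compared with circles and triangles with triangles.

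Lipoprotein receptors of this family and their partners moved in both directions. Of 18 tested genes 2 rose and 3 fell (median 0.13, against 0.02 over all tested genes). Lrpap1, the chaperone that keeps these receptors free of ligand during folding, stood at 147, 142, 140, 135 and 130 CPM in WT and at 186, 198, 198, 245 and 200 CPM in VLDLR_KO (0.54, SE 0.08, adjusted p = 0.00207). Mesd, another chaperone of the family, rose by 0.39 (SE 0.08, adjusted p = 0.0144). Both chaperones were higher in every VLDLR_KO library than in any WT library. Lrp12, an orphan member of the family, had 244, 272, 230, 247 and 211 CPM in WT against 87.7, 46.6, 137, 168 and 137 CPM in VLDLR_KO (-1.29, SE 0.23, adjusted p = 0.00449). Its groups did not overlap, and the lowest levels were in VLDLR_KO replicates 1 and 2. Lrp12 lies in a stretch of chromosome 15 with many changed genes, described with the positions of the calls. Lpl, the lipase that releases fatty acids from triglyceride-rich lipoproteins, had 7951, 8402, 4563, 5810 and 4136 CPM in WT against 1145, 1079, 3913, 6269 and 3191 CPM in VLDLR_KO (-1.50, SE 0.28, adjusted p = 0.00666). Over all libraries the Lpl groups overlap, but within each form every VLDLR_KO library was lower than every WT library. Without the form in the model Lrp12 and Lpl were not called (adjusted p = 0.0507 and 0.265). The ligand gene Apoe was not called (0.55, adjusted p = 0.358): it differed by 1.6 in the digit-first and by -0.50 in the B-first form.

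Few genes of lipid handling were called. Of 29 genes of lipid uptake, storage and efflux 1 rose and 3 fell (13.8%, near the 11.6% of all tested genes; median -0.10), and of 21 genes of fatty acid oxidation 1 rose and 3 fell (19.0%; median -0.12). Dgat2, which makes triglyceride for lipid droplets, rose from 0.166, 0.285, 0.259, 0.474 and 0.106 CPM in WT to 3.93, 3.69, 1.63, 2.60 and 2.12 CPM (3.51, SE 0.35, adjusted p = 0.00011). These are low levels, and the groups did not overlap. Pparg, the nuclear receptor that drives lipid storage and uptake, fell by 0.76 on the log2 scale (SE 0.11, adjusted p = 0.00135), and Acadl, the long-chain acyl-CoA dehydrogenase, had 101, 112, 74.8, 73.9 and 79.9 CPM in WT against 35.6, 35.5, 53.5, 65.2 and 64.6 CPM in VLDLR_KO (-0.95, SE 0.10, adjusted p = 0.000112). The peroxisomal oxidation gene Ehhadh fell too (-1.44, SE 0.34, adjusted p = 0.0208). The 3 calls of lower storage genes became 1 without any 1 of WT replicate 3 and VLDLR_KO replicates 3 and 5, and 7 without VLDLR_KO replicate 4, and the 3 of oxidation became 5 without VLDLR_KO replicate 4. The 1 higher storage gene became 2 without WT replicate 1 or VLDLR_KO replicate 2, and the 1 of oxidation became 0 without WT replicate 3 or 4. For 10 of the 29 uptake, storage and efflux genes the genotype effect differed between the forms. Their medians were 0.154 in the digit-first and -0.267 in the B-first form. Pparg and Ehhadh were not called without the form in the model (adjusted p = 0.0515 and 0.0766). Of 17 genes of fatty acid synthesis 0 were called by edgeR (median -0.17), with 5 at an unadjusted p under 0.05, 4 called by DESeq2 and 1 by limma-voom. With WT replicate 1 or VLDLR_KO replicate 4 left out 1 was called lower, and with VLDLR_KO replicate 1 left out 1 was called higher. For 8 of the 17 the genotype effect differed between the forms, and the list medians were -0.448 in the digit-first and 0.155 in the B-first form.

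Of 27 tested genes of cholesterol synthesis 6 fell and 0 rose (median -0.47), and the genotype effect differed between the forms for 15 of them, with medians of -0.99 in the digit-first and -0.02 in the B-first form. Their summed level was 1080 and 975 CPM in VLDLR_KO replicates 1 and 2, 1640 to 1940 CPM in the other VLDLR_KO libraries and 1770 to 2090 CPM in WT. Hmgcs1, the synthase that feeds the pathway, had 140, 162, 166, 175 and 136 CPM in WT against 71.6, 48.9, 119, 120 and 103 CPM in VLDLR_KO (-0.90, SE 0.20, adjusted p = 0.0184). Insig1, the sterol-sensing brake of the pathway (-0.83, SE 0.15, adjusted p = 0.00441), and Sc5d, the sterol desaturase (-1, SE 0.21, adjusted p = 0.014), fell with it. For all of Hmgcs1, Insig1 and Sc5d the groups did not overlap, the effect was larger in the digit-first form (by 1, 0.67 and 1.11 on the log2 scale), and this difference was called (adjusted p = 0.0315, 0.0482 and 0.0163). Hmgcs1 was not called without the form in the model (adjusted p = 0.0829).

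The promoter of Hmgcs1 holds a match to TCACNCCAC, the core of a sterol regulatory element, searched on both strands in the 250 bases before the gene start (RefSeq sequences, GRCm38.p6). It was the 1 match among 20 cholesterol synthesis genes with a promoter sequence, while 1.17% of 9231 tested genes and 1.05% of all 32851 promoters held one. The stretch is shown because it is the one cholesterol gene promoter with the motif, on the plus strand at chr13:119690184-119690252, with the match in capitals.
Hmgcs1: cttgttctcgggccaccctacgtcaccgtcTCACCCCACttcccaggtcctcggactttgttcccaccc
A match of letters describes the sequence and does not show that a factor binds there.

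Of 36 tested genes of the type I interferon response, which cells switch on against viruses, 6 fell (median -0.22). None rose by edgeR, but 1 was called higher without WT replicate 5 and 2 without VLDLR_KO replicate 1. A negative log2 fold change was found for 28 of the 36. Rsad2, the antiviral enzyme viperin, stood at 13.6, 20.6, 36.2, 39.7 and 55.8 CPM in WT and at 7.75, 6.60, 7, 5.43 and 6.83 CPM in VLDLR_KO (-2.01, SE 0.26, adjusted p = 0.000698). All VLDLR_KO libraries lay in a narrow band under the lowest WT library, and WT itself was higher in the digit-first than in the B-first form. Oasl2, of the oligoadenylate synthetase family, had 36.1, 36.4, 51.3, 63.0 and 72.8 CPM in WT against 27.4, 30.6, 21.1, 19.5 and 19.8 CPM in VLDLR_KO (-0.98, SE 0.11, adjusted p = 0.000253). The ubiquitin ligase gene Herc6 (-0.70, SE 0.12, adjusted p = 0.00323), the helicase gene Ddx60 (-0.62, SE 0.15, adjusted p = 0.0261) and Trim30a (-0.53, SE 0.13, adjusted p = 0.0285) fell as well. Ddx60 was not called without WT replicate 2, 3, 4 or 5 or VLDLR_KO replicate 3, and Trim30a without WT replicate 3, 4 or 5 or VLDLR_KO replicate 5 (adjusted p up to 0.0667 and 0.0631). Trim30a was also not called without the form in the model (0.0767). Of 18 receptors and sensors of the interferon pathway 0 were called by edgeR (median -0.03), with 2 at an unadjusted p under 0.05, 1 called by DESeq2 and 0 by limma-voom. For 7 of the 18 the genotype effect differed between the forms, and the list medians were 0.276 in the digit-first and -0.099 in the B-first form.

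Promoters of interferon response genes often carry the interferon-stimulated response element, searched here on both strands as GAAA, a pair of any bases and GAAA again. It was found in 14 of the 28 list genes with a promoter sequence, among them 3 of the 6 called genes, against 3.33% of 9231 tested genes and 2.98% of 32851 promoters. These stretches are shown because they belong to the genes that fell and hold the element, which is in capitals. Rsad2 lies on the minus strand (chr12:26456533-26456602), Trim30a on the minus strand (chr7:104465194-104465259) and Ddx60 on the plus strand (chr8:61928004-61928086), and all sequences read 5′ to 3′ along the gene.
Rsad2: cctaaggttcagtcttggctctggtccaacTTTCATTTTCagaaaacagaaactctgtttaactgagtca
Trim30a: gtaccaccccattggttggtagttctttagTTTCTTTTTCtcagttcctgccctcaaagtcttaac
Ddx60: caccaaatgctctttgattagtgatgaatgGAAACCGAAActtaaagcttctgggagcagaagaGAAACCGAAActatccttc
In Rsad2 and Trim30a the element runs on the opposite strand, so its reverse complement is in capitals, and Ddx60 holds 2 copies in the direction of the gene. Uncalled members held the element as well, 11 of 22.

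Fc receptors bind the constant part of antibodies and trigger uptake. Of 17 tested genes of these receptors and their adaptors 2 rose and 4 fell (median -0.01). Fcgr4, an activating IgG receptor, had 73.9, 75.4, 79.8, 83.1 and 92.3 CPM in WT against 14.7, 16.9, 32.5, 47.2 and 33.7 CPM in VLDLR_KO (-1.69, SE 0.27, adjusted p = 0.00242). Fcgr1, the high-affinity IgG receptor, fell by 0.78 on the log2 scale (SE 0.16, adjusted p = 0.0128), Fcgr3 by 0.62 (SE 0.14, adjusted p = 0.0179) and Fcer1g, the shared signalling chain, by 0.75 (SE 0.17, adjusted p = 0.0169). Fcgr2b, the inhibitory IgG receptor, had 92.6, 97.1, 31.8, 33.1 and 35.9 CPM in WT against 187, 187, 162, 107 and 158 CPM in VLDLR_KO (1.53, SE 0.32, adjusted p = 0.0122). The Fcgr4 and Fcgr2b groups were separate in opposite directions, and both effects were larger in the digit-first form (-2.42 and 2.48 against -0.99 and 0.58; adjusted p of the difference 0.00718 and 0.00191). Fgr, a kinase of the SRC family, rose by 1.36 (SE 0.25, adjusted p = 0.0062). The count of lower genes became 2 without WT replicate 1, where Fcer1g (0.0525) and Fcgr3 were not called. Fcgr3 was not called either without WT replicate 2 or VLDLR_KO replicate 5 (adjusted p up to 0.0589), and Fgr, Fcer1g and Fcgr3 were not called without the form in the model (0.339, 0.0955 and 0.112). Fcgr2b, Fcgr4, Fcgr3 and Fcer1g lie within chromosome 1, 170960558 to 171234349 (GRCm38), in a stretch with many changed genes, described with the positions of the calls.

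Genes for the clearance of dying cells and for scavenging moved both ways, 3 higher and 4 lower of 23 (median 0.10). Mfge8, the bridge between phosphatidylserine on dying cells and integrins of the phagocyte, stood at 2029, 2396, 1060, 1090 and 785 CPM in WT and at 94.0, 88.2, 261, 704 and 315 CPM in VLDLR_KO (-2.90, SE 0.32, adjusted p = 0.000234). Thbs1, thrombospondin 1, another bridging protein, had 71.6, 108, 102, 44.3 and 83.2 CPM in WT against 10.6, 12.2, 19.2, 21.7 and 13.2 CPM in VLDLR_KO (-2.52, SE 0.25, adjusted p = 0.00011). Neither gene's groups overlapped. Anxa1, annexin A1, fell by 1.13 on the log2 scale (SE 0.20, adjusted p = 0.00487). The scavenger receptor gene Marco rose from at most 1.54 CPM in WT to 1.66 to 6.90 CPM (2.23, SE 0.32, adjusted p = 0.00138). Tgm2, tissue transglutaminase, had 100, 102, 278, 322 and 256 CPM in WT against 517, 530, 200, 161 and 228 CPM in VLDLR_KO (0.92, SE 0.11, adjusted p = 0.000365). Tgm2 groups overlap over all libraries but were separate within each form, and the gene was not called without the form in the model (adjusted p = 0.474). Nor were Anxa1 (0.26) and the phosphatidylserine receptor gene Cd300lf (0.237), which rose by 0.82 with it (SE 0.17, adjusted p = 0.0127).

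Genes of alternative activation, the state macrophages take after interleukin 4, moved apart: 4 rose and 2 fell of 13 tested (median 0.07). Other members of the list were too low to test. Ccl17 had 0 counts in every library, and Arg1, Retnla, Ccl24 and Pdcd1lg2 were under 1 CPM in every library. Clec7a, the beta-glucan receptor dectin-1, had 1538, 1634, 658, 707 and 845 CPM in WT against 161, 150, 266, 428 and 344 CPM in VLDLR_KO (-2.22, SE 0.14, adjusted p = 4.07e-06). All VLDLR_KO libraries were below all WT libraries, by the same amount in both forms (-2.24 and -2.20). Tgfbr2, a TGF-beta receptor chain, had 208, 205, 255, 234 and 248 CPM in WT against 469, 366, 448, 410 and 458 CPM in VLDLR_KO (0.93, SE 0.10, adjusted p = 0.000219). The lectin gene Mgl2 (3.48, SE 0.50, adjusted p = 0.00127) and Cd163, the haemoglobin scavenger receptor gene (1.93, SE 0.28, adjusted p = 0.00138), rose from means of 0.155 and 0.863 CPM in WT to 1.98 and 3.74 CPM. The count of 2 lower genes became 1 without WT replicate 2, 3, 4 or 5 or VLDLR_KO replicate 1, 3 or 5. Of 30 macrophage identity genes 3 rose and 4 fell (median 0.05), and the 4 became 2 without WT replicate 1 or 5 and 1 without WT replicate 2 or VLDLR_KO replicate 5. For 9 of the 30 the genotype effect differed between the forms, and the list medians were 0.318 in the digit-first and -0.263 in the B-first form.

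The list of chemokine receptors also holds receptors of other ligands, such as P2ry12 and C3ar1. Of its 16 tested genes 5 rose and 1 fell, while 8 had a positive and 8 a negative log2 fold change (median -0.05). Cx3cr1, the fractalkine receptor, had 4.60, 2.56, 25.5, 11.2 and 11.4 CPM in WT against 100, 81.5, 53.5, 9.31 and 28.1 CPM in VLDLR_KO (2.76, SE 0.45, adjusted p = 0.00309). The Cx3cr1 groups overlap through VLDLR_KO replicate 4 and were separate only within each form. P2ry12, an ADP receptor that guides cell processes, had 2.55, 2.45, 1.24, 0.949 and 0.901 CPM in WT against 4.74, 4.70, 7.05, 4.60 and 8.42 CPM in VLDLR_KO (1.78, SE 0.23, adjusted p = 0.000698). No WT library reached the lowest VLDLR_KO library for P2ry12. C3ar1, the complement C3a receptor gene, had 1118, 1183, 1336, 1480 and 1424 CPM in WT against 982, 866, 884, 843 and 782 CPM in VLDLR_KO (-0.54, SE 0.09, adjusted p = 0.00253). The groups did not overlap, and C3ar1 was the called member that fell. The count of 5 higher genes was 5 with any 1 library left out, and the 1 lower became 2 without VLDLR_KO replicate 1 or 5. Cx3cr1 was not called without the form in the model (adjusted p = 0.0837).

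Of 20 integrins and other adhesion receptors 4 rose and 1 fell, and 11 had a negative log2 fold change (median -0.17). Itgax, CD11c, stood at 712, 837, 108, 104 and 67.0 CPM in WT and at 941, 747, 1359, 2350 and 1569 CPM in VLDLR_KO (2.18, SE 0.37, adjusted p = 0.00398). Itgal, CD11a, had 75.3, 63.1, 18.4, 18.8 and 27.1 CPM in WT against 115, 71.9, 231, 178 and 184 CPM in VLDLR_KO (1.81, SE 0.19, adjusted p = 0.000135). For both genes WT was high in the B-first form, so that the groups overlap over all libraries and were separate within each form. Itgam, CD11b, fell by 0.86 on the log2 scale (SE 0.21, adjusted p = 0.0221), a call lost without WT replicate 2 or VLDLR_KO replicate 5 (adjusted p up to 0.0506). Without the form in the model Itgax and Itgam were not called (0.156 and 0.516). The 4 higher calls became 2 without WT replicate 1, 3, 4 or 5 or VLDLR_KO replicate 1 or 5, and the 1 lower became 2 without VLDLR_KO replicate 4. Itgax also marks dendritic cells: of 12 such markers with counts, 3 were tested and Itgax was the 1 called (2 without WT replicate 2 or 3). Their sum, Itgax included, was 183 to 899 CPM in WT and 997 to 2410 CPM in VLDLR_KO, and 8 of the 12, among them Flt3, Zbtb46 and Clec9a, were under 1 CPM in every library.

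Lysosomal hydrolases, the digesting enzymes of the lysosome, included 3 higher and 7 lower genes of 45 (median -0.04). Asah1, acid ceramidase, had 612, 610, 554, 566 and 566 CPM in WT against 347, 285, 319, 353 and 323 CPM in VLDLR_KO (-0.86, SE 0.08, adjusted p = 7.59e-05). Ctsh, cathepsin H, had 338, 346, 214, 211 and 225 CPM in WT against 60.7, 69.0, 110, 121 and 111 CPM in VLDLR_KO (-1.66, SE 0.08, adjusted p = 9.41e-07). Both were lower in every VLDLR_KO library, and Ctsh was higher in the B-first form in both genotypes. Rnaset2b, a lysosomal ribonuclease with a near-identical copy, had 57.9, 53.9, 48.7, 50.6 and 53.1 CPM in WT against 0.430, 0.238, 0, 0.887 and 0 CPM in VLDLR_KO, an uncertain value for that reason. Fuca1, alpha-fucosidase (0.67, SE 0.15, adjusted p = 0.017), and Ctsc, cathepsin C (0.68, SE 0.14, adjusted p = 0.00957), rose. The counts stayed at 3 higher and 6 to 10 lower with any 1 library left out. Ctsc was not called without the form in the model (0.0953).

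Of 36 genes of the lysosomal membrane and proton pump 2 fell and 0 rose (5.56%, under the 11.6% of all tested genes, median -0.04). Both encode subunits of the peripheral domain of the pump that acidifies the lysosome. Atp6v1c1 stood at 398, 411, 424, 462 and 471 CPM in WT and at 200, 161, 250, 274 and 269 CPM in VLDLR_KO (-0.97, SE 0.14, adjusted p = 0.00154). Atp6v1e1 had 333, 337, 297, 296 and 337 CPM in WT against 198, 248, 206, 258 and 234 CPM in VLDLR_KO (-0.50, SE 0.10, adjusted p = 0.00768). Neither gene's groups overlapped, and the count of 2 became 5 without VLDLR_KO replicate 4. Of 32 autophagy genes 0 were called by edgeR (median -0.03), with 7 at an unadjusted p under 0.05, 4 called by DESeq2 and 1 by limma-voom. Without VLDLR_KO replicate 1 there were 3 called lower, without VLDLR_KO replicate 4 there was 1 lower and without VLDLR_KO replicate 3 there was 1 higher.

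Of 12 tested genes of the MHC class II pathway, which presents antigen to T cells, 5 fell and 1 rose (median -0.59). H2-Aa, a class II alpha chain, had 29.4, 48.1, 32.2, 24.3 and 22.1 CPM in WT against 10.6, 13.4, 18.9, 18.2 and 12.9 CPM in VLDLR_KO (-1.17, SE 0.18, adjusted p = 0.00186). H2-Eb1, a class II beta chain, fell by 1.10 on the log2 scale (SE 0.21, adjusted p = 0.00748). Neither overlapped between the genotypes, although for H2-Eb1 WT replicate 1 and VLDLR_KO replicate 2 both stood at 7.32 CPM to 3 digits. WT replicate 2 was the highest for both genes. The summed level of the list was 5820 and 6070 CPM in WT replicates 1 and 2, 3330 to 3630 CPM in the other WT libraries and 2470 to 4590 CPM in VLDLR_KO. The 5 lower calls became 3 without any 1 of WT replicates 1 and 5 and VLDLR_KO replicate 5, and 2 without WT replicate 2, and the 1 higher became 0 without WT replicate 3, 4 or 5 or VLDLR_KO replicate 1, 2, 3 or 5. Of 22 MHC class I genes 1 fell and 0 rose (4.55%, under the 11.6% of all tested genes, median 0.15). That 1 was still called without WT replicate 3 or VLDLR_KO replicate 2 but not without any other library. For 8 of the 22 the genotype effect differed between the forms, and the list medians were 0.44 in the digit-first and -0.243 in the B-first form.

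**Figure D3:**
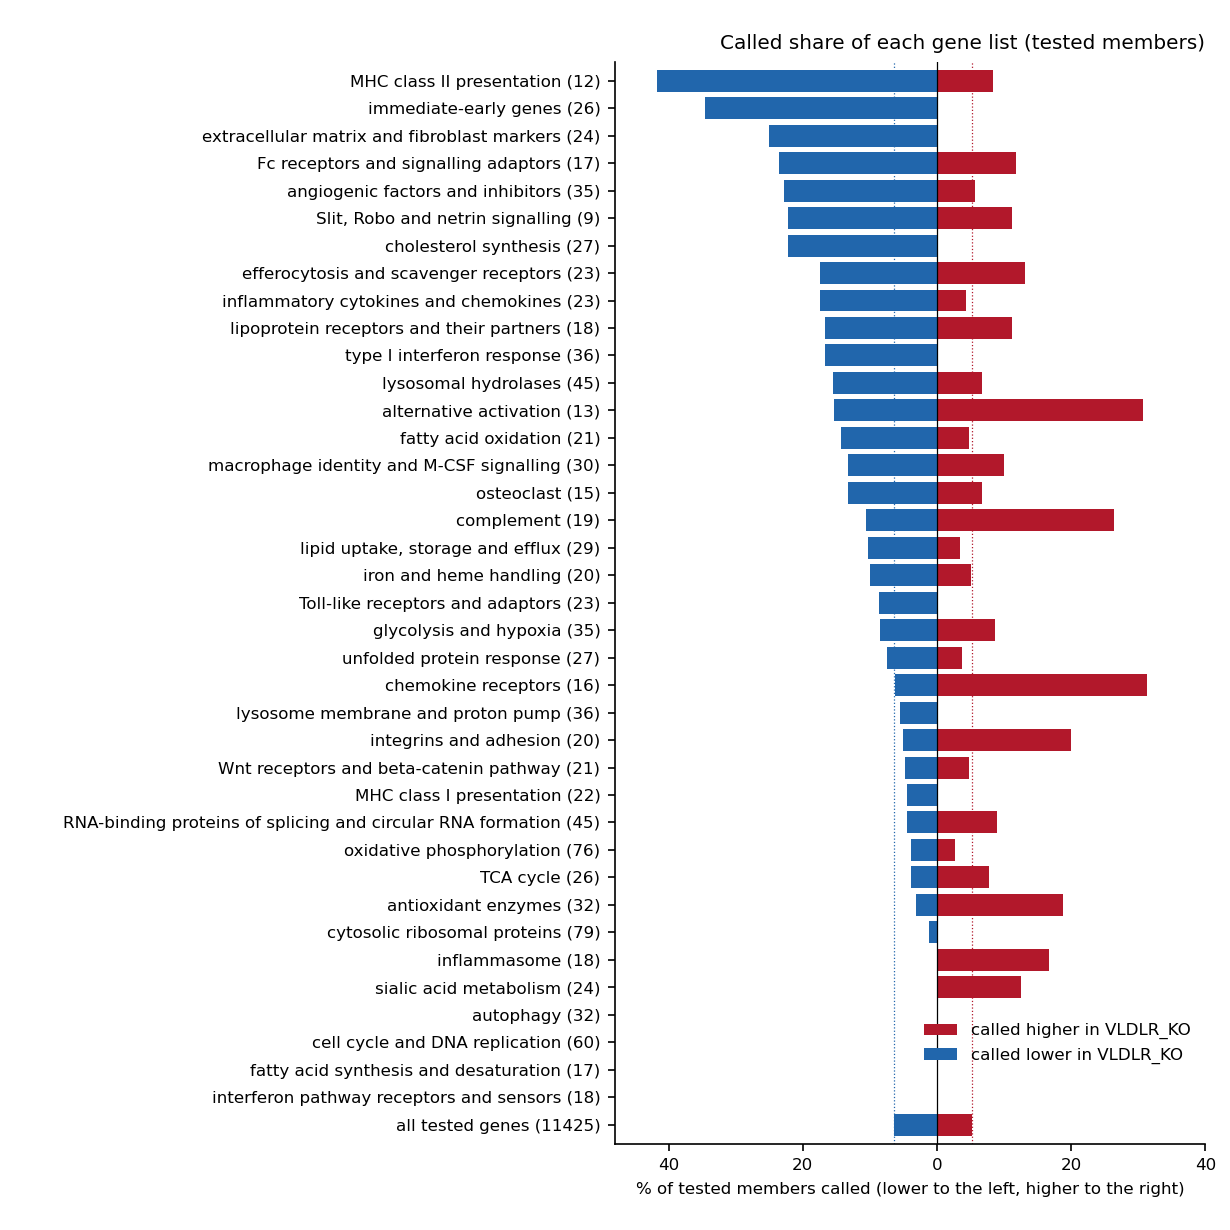
Share of the tested members of each gene list with at least 9 tested genes (number in brackets) that were called lower (blue, left) or higher (red, right) in VLDLR_KO. Dotted lines and the bottom bar give the shares of all tested genes (6.38% lower, 5.19% higher). Of the lists drawn, chemokine receptors, a list that also holds receptors of other ligands, reach furthest to the right (5 of 16 higher). MHC class II genes reach furthest to the left (5 of 12 lower).

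Of 26 tested immediate-early genes, which cells switch on within minutes of a stimulus, 9 fell and 0 rose, and all 26 had a negative log2 fold change (median -0.91). Medians were -0.37 in the digit-first and -1.56 in the B-first form, and the genotype effect differed between the forms for 15 of the 26. WT replicates 1 and 2 stood apart: the list summed to 5390 and 6050 CPM there, to 1550 to 1590 CPM in the other WT libraries and to 1280 to 1840 CPM in VLDLR_KO. Dusp1, a phosphatase that ends MAP kinase signals, had 592, 680, 33.1, 34.1 and 35.1 CPM in WT against 11.5, 9.46, 61.5, 94.4 and 73.9 CPM in VLDLR_KO (-2.42, SE 0.25, adjusted p = 0.00013). Within the forms it differed by -1.70 (digit-first) and -3.06 (B-first), and this difference was called (adjusted p = 0.0103). Jun, an AP-1 subunit, had 193, 217, 130, 128 and 130 CPM in WT against 90.9, 84.6, 101, 132 and 117 CPM in VLDLR_KO (-0.68, SE 0.09, adjusted p = 0.000992). Both groups overlap over all libraries and were separate within each form. Fosb, another AP-1 gene, was at 92.8 and 132 CPM in WT replicates 1 and 2 and at most 1.63 CPM in every other library, and these 2 libraries stand behind its call (-6.29, SE 0.52, adjusted p = 2.89e-05). The count of lower genes was 8 to 11 with any 1 library left out. Without the form in the model 0 of the 26 were called by edgeR, with adjusted p of 0.222, 0.0942 and 0.0739 for Dusp1, Jun and Fosb.

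Of 23 inflammatory cytokines and chemokines 4 fell and 1 rose over both forms (median -0.60, with 0.41 in the digit-first and -0.75 in the B-first form). Ptgs2, cyclooxygenase 2, stood at 37.9, 52.6, 4.62, 3.37 and 3.07 CPM in WT and at 0.700, 0.476, 1.21, 0.998 and 0.530 CPM in VLDLR_KO (-4.56, SE 0.53, adjusted p = 0.000301). Its groups did not overlap, and the effect was larger in the B-first form (-5.63 against -2.62, adjusted p of the difference 0.0106). Il1a, interleukin 1 alpha, had 16.7, 18.2, 3.06, 2.90 and 1.96 CPM in WT against 1.02, 1.25, 5.89, 9.04 and 9.59 CPM in VLDLR_KO (-1.14, SE 0.19, adjusted p = 0.00326). The chemokine gene Ccl9 fell by 1.10 on the log2 scale (SE 0.17, adjusted p = 0.0018). Il1a and Ccl9 overlap between the genotypes over all libraries, were separate within each form, and were not called without the form in the model (0.686 and 0.243). The 1 higher gene was not called without WT replicate 2, 4 or 5 or VLDLR_KO replicate 1, 2 or 5.

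Complement genes were called more often than genes of infection sensing. Nlrp3, the inflammasome sensor, had 30, 35.3, 24.8, 28.3 and 20.7 CPM in WT against 54.0, 46.5, 68.8, 37.6 and 69.1 CPM in VLDLR_KO (0.94, SE 0.17, adjusted p = 0.0062), without overlap. It was 1 of 3 higher inflammasome genes of 18 (median 0.01), 1 of which was left without WT replicate 2, 4 or 5 or VLDLR_KO replicate 5. Of 23 Toll-like receptor genes 2 fell (8.7%, under the 11.6% of all tested genes, median -0.01). The 2 became 1 without WT replicate 2, 3, 4 or 5 or VLDLR_KO replicate 3, 4 or 5. Of 19 complement genes 5 rose and 2 fell (36.8%, against the 11.6% of all tested genes, median 0.44). The median was 0.135 without VLDLR_KO replicate 2, and 0.162 in the digit-first and -0.064 in the B-first form. For 7 of the 19 the genotype effect differed between the forms. Cd59a, which blocks the complement pore, was among the 5 that rose (0.87, SE 0.18, adjusted p = 0.0113). The 5 became 3 without any 1 of WT replicates 1 and 5 and VLDLR_KO replicate 5, and the 2 lower became 1 without WT replicate 2.

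Antioxidant enzymes rose in 6 of 32 cases and fell in 1 (median 0.13). Nnt, the mitochondrial transhydrogenase that supplies NADPH and that is partly deleted in the C57BL/6J substrain, stood at 28.7, 28.4, 23.2, 25.4 and 24.4 CPM in WT and at 52.8, 43.0, 62.6, 52.7 and 61.0 CPM in VLDLR_KO (1.01, SE 0.09, adjusted p = 4.62e-05). Mgst1, a microsomal glutathione transferase, had 135, 132, 80.2, 83.2 and 90.9 CPM in WT against 299, 335, 200, 290 and 212 CPM in VLDLR_KO (1.35, SE 0.20, adjusted p = 0.00165). All VLDLR_KO libraries exceeded all WT libraries for both genes. Gclm, the regulatory subunit of glutathione synthesis, rose by 0.80 (SE 0.11, adjusted p = 0.00112), while Gsr, glutathione reductase, fell by 0.62 on the log2 scale (SE 0.10, adjusted p = 0.00282). Neither was called without the form in the model (0.0686 and 0.146).

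Energy metabolism changed in few genes. Of 76 genes of oxidative phosphorylation 2 rose and 3 fell (6.58%, under the 11.6% of all tested genes), although 66 had a positive log2 fold change (median 0.26). Of 79 cytosolic ribosomal protein genes 1 fell (1.27%), and 69 had a positive sign (median 0.17). VLDLR_KO replicate 2 stood apart for both, with 60600 CPM of ribosomal protein genes against 30100 to 41400 CPM in the other libraries and 9080 CPM of oxidative phosphorylation genes against 5870 to 6900 CPM. Rps6, the called ribosomal gene (-2.38, SE 0.13, adjusted p = 2.21e-06), had 38.3 ± 2.15 CPM in WT against 7.15 ± 1.72 CPM in VLDLR_KO (SD, n = 5), the lowest WT mean of the list, whose median was 413 CPM. Atp5e, a subunit of ATP synthase (-4.29, SE 0.35, adjusted p = 2.78e-05), and Cox7a2, of cytochrome oxidase (-1.85, SE 0.21, adjusted p = 0.00025), fell. Genes of these families have near-identical copies, so these values are uncertain, and whether copies share their reads was not tested. The 2 higher oxidative phosphorylation genes became 14 without VLDLR_KO replicate 1, 0 without WT replicate 3, 4 or 5, and 1 without WT replicate 1 or 2 or VLDLR_KO replicate 5, and the 1 lower ribosomal gene became 3 without VLDLR_KO replicate 2. Of 35 genes of glycolysis and hypoxia 3 rose and 3 fell (median -0.07), the 3 higher becoming 1 without WT replicate 1, 3, 4 or 5 or VLDLR_KO replicate 5. Of 26 genes of the TCA cycle 2 rose, Idh2 among them (0.50, SE 0.10, adjusted p = 0.0105), and 1 fell (11.5%, near the share of all tested genes, median 0.07). The 2 became 1 without WT replicate 2, and the 1 became 2 without VLDLR_KO replicate 2 and 0 without any other library.

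Cell cycle genes were not called for the genotype, 0 of 60 by edgeR (median -0.03), with 13 at an unadjusted p under 0.05, 8 called by DESeq2 and 0 by limma-voom, but 39 of the 60 were called for a different genotype effect in the forms. Their median was -0.70 in the digit-first and 0.63 in the B-first form, and their summed level was 1460 and 1480 CPM in VLDLR_KO replicates 1 and 2, 2910 to 5360 CPM in the other VLDLR_KO libraries and 2340 to 3110 CPM in WT. The differences within the forms had opposite signs. Single libraries bear on the 0: without VLDLR_KO replicate 4 there were 5 called higher, without VLDLR_KO replicate 1 there were 3 higher and 1 lower, and without VLDLR_KO replicate 2 there was 1 lower.

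**Figure D4:**
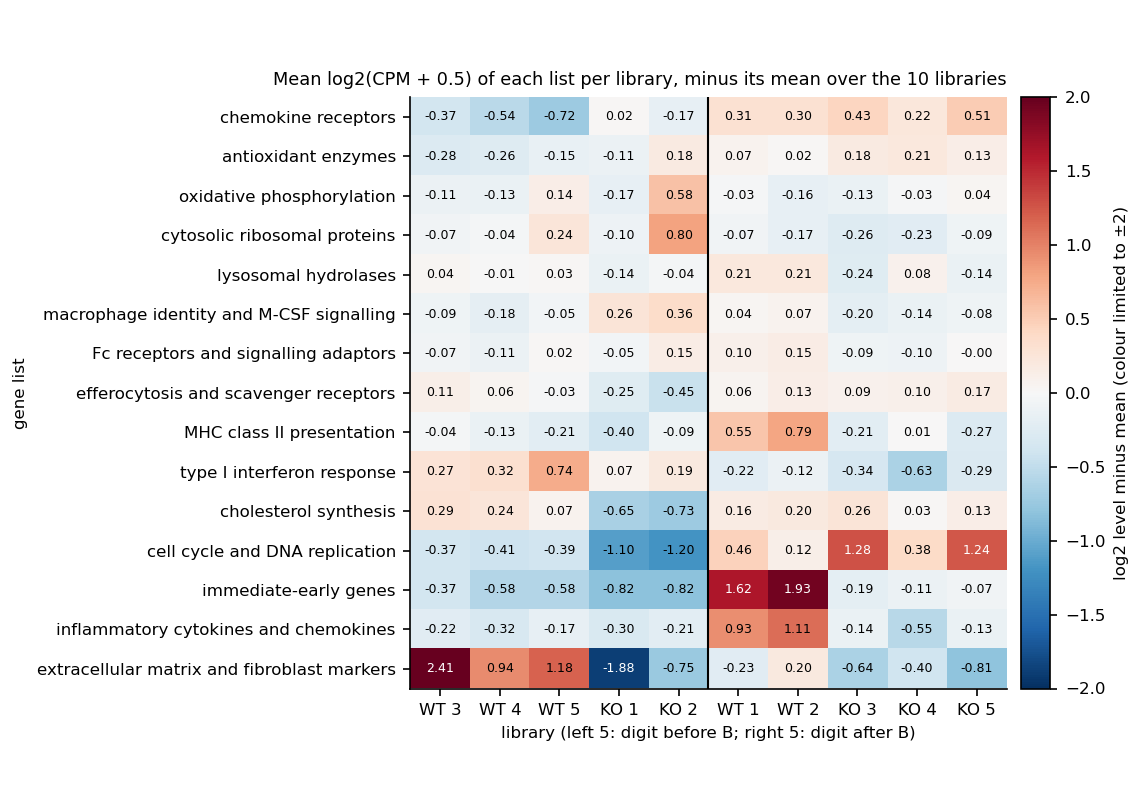
Mean log2(CPM + 0.5) of the members of 15 gene lists in each library, minus the list's mean over the 10 libraries, as numbers and colours, with WT before VLDLR_KO (KO) in each form. Immediate-early and inflammatory genes are high in WT 1 and 2, cell cycle genes are low in KO 1 and 2 and high in KO 3 and 5, and matrix genes are highest in WT 3 (2.41) and lowest in KO 1 (-1.88).

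Qk, the QKI gene of the series title (Entrez 19317, chromosome 17, 10187543 to 10319361, minus strand, GRCm38), was lower in VLDLR_KO. It had 278, 304, 235, 261 and 236 CPM in WT against 190, 121, 217, 215 and 188 CPM in VLDLR_KO (-0.57, SE 0.12, adjusted p = 0.0144). No VLDLR_KO library reached the lowest WT library, and the genotype effect was -0.65 in the digit-first and -0.50 in the B-first form. The call needed the form in the model (0.0943 without it), and it held with any 1 library left out. Of 45 RNA-binding proteins of splicing and circular RNA formation 4 rose and 2 fell (13.3%, near the 11.6% of all tested genes, median 0.13). Khsrp, a KH-domain splicing regulator, had 83.9, 86.2, 84.5, 79.7 and 74.0 CPM in WT against 63.7, 50.9, 62.8, 57.3 and 60.5 CPM in VLDLR_KO (-0.48, SE 0.08, adjusted p = 0.00424). Srsf4, an SR splicing factor, rose by 0.36 (SE 0.07, adjusted p = 0.00953). The 4 higher calls became 1 without any 1 WT library or VLDLR_KO replicate 5, 2 without VLDLR_KO replicate 3 and 7 without VLDLR_KO replicate 2.

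Slc17a5 mRNA had 80.4, 88.5, 102, 106 and 105 CPM in WT against 111, 95.5, 75.4, 85.4 and 75.0 CPM in VLDLR_KO. It did not pass the test (-0.06, SE 0.08, adjusted p = 0.657). Its level followed the code form in both genotypes. Circular RNA was not analysed here. Of 24 genes of sialic acid metabolism and sialic acid receptors 3 rose and 0 fell (12.5%, near the 11.6% of all tested genes, median 0.02). Nans, the sialic acid synthase, had 44.5, 45.4, 36.4, 39.7 and 35.4 CPM in WT against 44.8, 72.2, 59.2, 63.0 and 70.5 CPM in VLDLR_KO (0.59, SE 0.13, adjusted p = 0.014), with VLDLR_KO replicate 1 inside the WT range. Cd33, a sialic acid receptor, rose by 0.64 (SE 0.13, adjusted p = 0.00989) and was not called without the form in the model (0.738).

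Angiogenic factors and inhibitors, on which the series title bears, were more often called lower, 8 of 35 against 2 higher (median -0.36). Col18a1, the collagen from which the inhibitor endostatin is cut, stood at 8.65, 10.2, 33.4, 32.1 and 26.8 CPM in WT and at 2.15, 1.84, 4.05, 3.27 and 1.38 CPM in VLDLR_KO (-2.78, SE 0.46, adjusted p = 0.00309). Angptl7, an angiopoietin-like secreted protein, had at most 0.158 CPM in WT and 12.9, 16.4, 6.21, 6.26 and 7.84 CPM in VLDLR_KO (7.36, SE 0.32, adjusted p = 5.73e-07). Neither overlapped between the genotypes, and Thbs1, an inhibitor given above, is also a member. The 8 lower calls became 5 without WT replicate 2, WT replicate 5, VLDLR_KO replicate 1 or VLDLR_KO replicate 5, and the 2 higher became 1 without WT replicate 1, 3, 4 or 5 or VLDLR_KO replicate 1, 2 or 5. In the Slit, Robo and netrin list, which guides axons and vessels, 1 rose and 2 fell of 9 (median -0.45). Neo1, the receptor neogenin, had 3.71, 4.22, 7.05, 3.58 and 4.18 CPM in WT against 19.3, 11.1, 26.5, 23.6 and 12.2 CPM in VLDLR_KO (2, SE 0.31, adjusted p = 0.00195). The ligand gene Slit1 (-2.75, SE 0.40, adjusted p = 0.00145) and the netrin receptor gene Unc5a (-2.91, SE 0.44, adjusted p = 0.00185) fell, from WT means of 4.25 and 1.56 CPM. In the Wnt list 1 rose and 1 fell of 21 (9.52%, near the 11.6% of all tested genes, median 0.12). The first became 2 without VLDLR_KO replicate 2 and the second 2 without VLDLR_KO replicate 4. The gene that rose is Ctnnb1, beta-catenin, with 480, 485, 524, 522 and 483 CPM in WT and 897, 584, 672, 754 and 634 CPM in VLDLR_KO (0.52, SE 0.12, adjusted p = 0.017).

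Markers of stromal cells moved with the genotype. All 24 tested matrix and fibroblast genes had a negative log2 fold change (median -2.14, -3.06 in the digit-first and -0.64 in the B-first form), and 6 fell. Col3a1, a fibrillar collagen, had 0.665, 1.42, 13.2, 2.48 and 9.54 CPM in WT against 0.161, 0.119, 0.158, 0.111 and 0.265 CPM in VLDLR_KO (-4.23, SE 0.77, adjusted p = 0.00543). Its groups did not overlap, and WT replicates 3 and 5 were high. The list of 26 genes summed to 2840 to 3540 CPM in WT and 1460 to 3470 CPM in VLDLR_KO. The count of 6 became 1 without any 1 of WT replicate 5 and VLDLR_KO replicates 2 and 5, 2 without WT replicate 2 or VLDLR_KO replicate 1, 3 without WT replicate 4 and 10 without VLDLR_KO replicate 4. Osteoblast and stroma markers had 1 lower of 7 tested (median -1.75), called only without any 1 of WT replicate 4 and VLDLR_KO replicates 3 and 4 among the sets with 1 library left out, and 7 of 14, among them Sp7 and Bglap, were under 1 CPM everywhere. In bulk libraries fewer cells of a type and less RNA per cell cannot be told apart, and the part of stromal cells in the other results was not tested.

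Markers of other cells were mostly too low to test. Of mast cell and basophil markers only Kit, the stem cell factor receptor, was tested and fell (-2.27, SE 0.35, adjusted p = 0.0019). It had 2.38, 2.56, 22.2, 27.4 and 21 CPM in WT against 4.20, 2.20, 1.37, 0.554 and 0.742 CPM in VLDLR_KO, high in WT replicates 3 to 5 alone, while Cpa3, Ms4a2 and 3 other markers were under 1 CPM everywhere. By edgeR, DESeq2 and limma-voom 0 markers were called, and 0 had an unadjusted edgeR p under 0.05, among 2 tested of endothelium, 2 of neutrophils, 1 of B cells, 2 of T and NK cells, 3 of erythroid cells and megakaryocytes and 1 of adipocytes. Their sums were 120 to 258 CPM in WT and 96.2 to 222 CPM in VLDLR_KO for endothelium, and 1.56 to 34.7 and 2.62 to 19.0 CPM for neutrophils. Osteoclast genes had 1 higher and 2 lower of 15 (median -0.27), the 2 becoming 5 without VLDLR_KO replicate 4 and 1 without any WT library or VLDLR_KO replicate 3 or 5. Of 20 genes of iron and heme handling 1 rose and 2 fell (median 0.07). The 1 higher became 2 without VLDLR_KO replicate 1, and the 2 lower became 1 without any 1 WT library or VLDLR_KO replicate 2, 3 or 5. Of 27 genes of the unfolded protein response 1 rose and 2 fell (11.1%, near the 11.6% of all tested genes, median 0.11). The 1 higher became 3 without VLDLR_KO replicate 1, stayed 1 without VLDLR_KO replicate 4 and became 0 without any other library, and the 2 lower became 1 without any library but WT replicate 1 and VLDLR_KO replicate 2.

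Some genes were called only once the form was taken into account. Prune2, a gene of neurons and of the cytoskeleton, had 27.5, 29.7, 5.81, 4.64 and 3.60 CPM in WT against 20.4, 10.9, 107, 89.4 and 94.0 CPM in VLDLR_KO (1.75, SE 0.18, adjusted p = 0.000122, 0.143 without the form). The B-first libraries were the higher ones in both genotypes, and within each form VLDLR_KO exceeded WT by 1.75. The lysosomal phospholipase B-like gene Plbd1 (3.33, SE 0.33, adjusted p = 0.000105) and the transcription activator gene Camta1 (1.13, SE 0.14, adjusted p = 0.000445) rose as well, Plbd1 with its highest levels in B-first and Camta1 in digit-first VLDLR_KO libraries. Among the losses, Rgs1, which dampens chemokine receptor signals, had 682, 780, 205, 214 and 246 CPM in WT against 91.1, 90.2, 178, 210 and 170 CPM in VLDLR_KO (-1.63, SE 0.14, adjusted p = 4.01e-05). Cytip, which regulates adhesion through cytohesin (-1.27, SE 0.11, adjusted p = 3.77e-05), and Phlda1 (-1.96, SE 0.20, adjusted p = 0.000115) fell likewise. For Rgs1, Cytip and Phlda1 the highest libraries were WT replicates 1 and 2, which also had the most immediate-early gene counts.

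Called genes were unevenly spread over the genome. Over chromosomes 1 to 19 and X, 6.57% (chromosome 16) to 16.9% (chromosome 4) of tested genes were called. On chromosome Y 0 of 4 tested genes were called by edgeR, DESeq2 and limma-voom, with 0 at an unadjusted edgeR p under 0.05, and 10 of 23 genes without a placed position (43.5%) were called. Of 203 windows of 10 Mb with at least 20 tested genes, 19 had over 2 times the share of all genes, holding 242 calls among 773 tested genes. The highest shares were 15 of 30 (50%) at chromosome 17, 1 to 10000000, and 38 of 79 (48.1%) at chromosome 1, 170000001 to 180000000 (GRCm38). The first window contains Rnaset2b. The second window contains the 4 Fc receptor genes named above, Ifi202b with other p200 family genes, and genes of the SLAM family. Other genes named above also lie in windows with many calls. Lrp12, Rims2 and Atp6v1c1 share 1 on chromosome 15 (13 of 38 called), and Mgst1 and Plbd1 share 1 on chromosome 6 (12 of 31). Zfp984 and Angptl7 share 1 on chromosome 4 (22 of 69). Gsr lies in 1 with 11 of 26 called and Mfge8 in 1 with 7 of 21. Lrpap1 (6 of 86) and Nnt (3 of 28) lie in windows under the share of all genes. Qk lies just beyond the chromosome 17 window. Within 2 Mb of Qk 4 of 11 other tested genes (36.4%) were called, all lower. Within 5 Mb 18 of 47 (38.3%) were called, 8 higher and 10 lower, and within 10 Mb 20 of 66 (30.3%), 9 higher and 11 lower. These distances were chosen after the windows were seen. Around Vldlr itself (chromosome 19), 1 of 10 tested genes within 2 Mb was called and 17 of 71 (23.9%) within 10 Mb, 5 higher and 12 lower. Anxa1 and Prune2, named above, are among these 17. The part of the strain background of the knockouts, on which the level of Nnt also bears, was not tested.

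**Figure D5:**
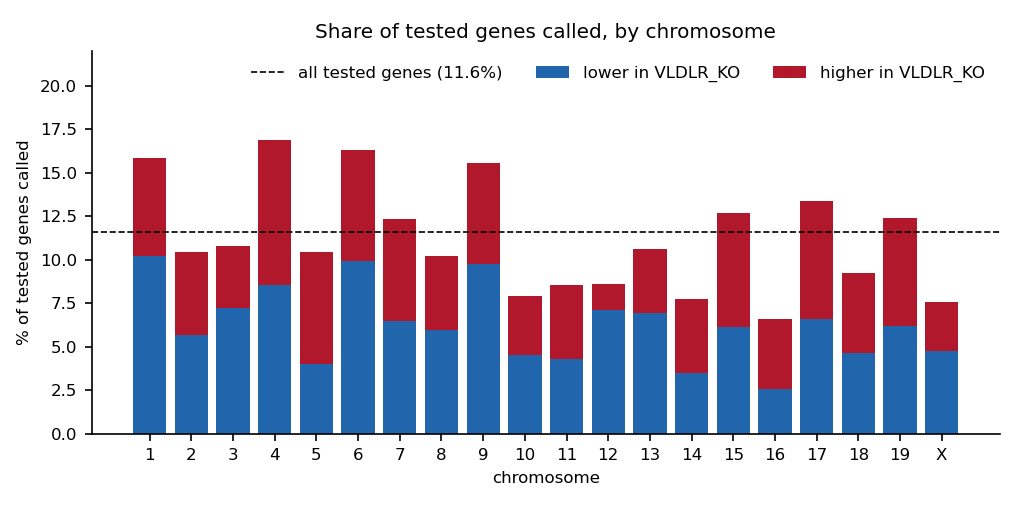
Share of tested genes called on chromosomes 1 to 19 and X, split into lower (blue) and higher (red) in VLDLR_KO, with the share of all tested genes (11.6%) as a dashed line. Among the chromosomes drawn, 1, 4, 6 and 9 stand highest (15.5% to 16.9%) and 16 lowest (6.57%).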

How the data were processed

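RNA of cultured bone macrophages was sequenced as 150-nt paired reads, per the labels' protocols. The authors deposited estimated counts per gene, made from aligned reads and not normalized (92.6% of them whole numbers). HISAT, Bowtie2 and the build GRCm38.p6 are named in the submitters' processing notes, and the program that made the counts is not given in the sources used here. A second gene table holds the same counts, and transcript values were not used.

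Counts of the 10 WT and VLDLR_KO libraries were rounded to whole numbers, and genes were kept by filterByExpr. Libraries were scaled by TMM and tested with edgeR 4.0.16 (R 4.3.3), using a two-sided quasi-likelihood F test with code form and genotype, and with their interaction in a second model. Benjamini-Hochberg adjustment covered all 11425 tested genes, with a threshold of 0.05. CPM use TMM-scaled totals. Totals of 18132866 to 18568782 counts make depth nearly equal, and the floor of 3 counts covers counting error only. In simulated data of the same 11425 genes the genotype model recovered 71% of genes changed 2-fold and 90% of those changed 4-fold, with 2.4% of calls false, and the interaction 13% and 61%, with 2.6% false. There 100 genes were changed at each size, far fewer than were called in the real data. Counts were drawn independently from the fitted dispersions, and the genotype simulation held no effect that differed between the forms. The rates may therefore not hold for the real data.

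Named genes were those with the largest fold changes (12 per direction, at least 10 CPM) among calls whose genotypes did not overlap within either form. The most abundant calls (8 per direction), up to 3 calls per list and direction, and fixed genes were added. So were the calls of smallest p (5 per direction) among genes not called without the form in the model. Some genes that meet this rule are not reported here. Fcgr3, Ddx60 and Trim30a were chosen after their values were seen. The comparison and the 48 gene lists were chosen with earlier results of these data known. Alternatives changed the scaling, tool (DESeq2 1.42.0, limma-voom 3.58.1), filter, covariates and libraries. Other scripts used Python 3.11.15 with pandas 2.3.3, numpy 2.4.6 and matplotlib 3.10.9.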

Additional observations from a re-analysis of the deposited data

Results flagged for a closer look

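Among 202 gene and genotype groups of 5 libraries (101 genes), 7 held a library far from the others by Dixon's criterion, while chance flags about 1 in 20 groups. In VLDLR_KO, replicate 4 had 245 CPM of Lrpap1 against 186 to 200 CPM in the others, and 0.0554 CPM of Npy against 0. VLDLR_KO replicate 1 had 0.269 CPM of Rab6b against at most 0.0526 CPM. VLDLR_KO replicate 2 had 10.2 CPM of Rps6 against 5.82 to 6.62 CPM and 3.75 CPM of Atp5e against 0.7 to 1.54 CPM. In WT, replicate 5 had 1.54 CPM of Marco against 0.632 to 0.798 CPM, and replicate 3 had 7.05 CPM of Neo1 against 3.58 to 4.22 CPM.

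For 20 of the 101 genes the genotype effect differed between the code forms by the interaction test of edgeR (adjusted over 11425 genes). Values are the log2 fold change in the digit-first form minus that in the B-first form. The ligand gene Apoe, not called for the genotype, had the difference 2.09. Among genes that rose, the difference was 1.63 for Rims2, 1.89 for Fcgr2b, 2 for Itgax and 1.10 for Mgst1, so these rose more in the digit-first form. Among genes that fell, the fall was larger in the digit-first form for Trim30d (-3.32), Zfp984 (-1.54), Cd5l (-4.63), Atp6v1c1 (-0.71), Fcgr4 (-1.45), Insig1 (-0.67), Sc5d (-1.11), Hmgcs1 (-1), Rsad2 (-1.20) and Col18a1 (-2.24). Cd5l, a secreted macrophage protein of lipid metabolism, differed by -6.68 in the digit-first and -2.06 in the B-first form. The fall was larger in the B-first form for Ptgs2 (3), Fosb (4.59), Dusp1 (1.35), Rgs1 (0.68) and Slit1 (2.24).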

How the results depend on the processing

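All 1322 calls that a setting gave a value for kept their direction in every setting run, but their number changed. DESeq2's test called 2153 genes (982 higher, 1171 lower), and the model without the form covariate 713 (293 higher, 420 lower). With all 15 libraries in the fit 903 genes were called higher. A replicate block of sample codes called 585 genes (225 higher, 360 lower). Libraries with the same code share only that code (correlations of deviations 0.147, -0.104, 0.373 and 0.315), and 5 of 8 libraries correlated best with their own code. Leaving out 1 library gave 889 to 1639 calls, 360 to 787 higher and 518 to 852 lower, and 197 to 4812 genes with a different effect in the forms. Other scalings, filters and limma-voom gave 1265 to 1414 calls. A covariate for Y-linked expression, chosen after seeing the data, gave 1511. Of 99 named and called genes 94 stayed called with any 1 library left out, 31 were not called without the form and 24 not with the replicate block, for causes that were not tested. Apoe alone reversed, to -0.50 within the B-first form. The median of all genes moved by less than 0.1 under every scaling, and genes such as Vldlr were too low to test at this depth.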
